A study of Mus musculus with 49 samples.

Results

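The genes described here are 10 members of the tissue inhibitor of metalloproteinases (TIMP) and matrix metalloproteinase (MMP) families, Timp2, Timp3, Timp4, Mmp2, Mmp12, Mmp14, Mmp15, Mmp16, Mmp17 and Mmp24, out of 45252 genes in the count table. They were taken by symbol, and the set was chosen on Timp2, whose level had been seen to be lower in the PBS-treated bigenic mice and close to control in the mice vaccinated with peptides 10 and 12. Timp2 values in those groups are therefore a description and carry no test. All 10 genes were among the 18220 that passed the filter on low counts. On GRCm38.p6 (RefSeq) they lie on 9 chromosomes, Timp2 at chr11:118301061-118355411, Timp3 at chr10:86300412-86349505, Timp4 at chr6:115244444-115252205, Mmp2 at chr8:92827290-92853421, Mmp12 at chr9:7344397-7360461, Mmp14 at chr14:54431598-54442456, Mmp15 at chr8:95352296-95374293, Mmp16 at chr4:17853072-18117479, Mmp17 at chr5:129584151-129611099 and Mmp24 at chr2:155775342-155818367, with Timp2 and Timp4 on the minus strand.

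Neocortical RNA was sequenced from 49 mice on a mixed C57BL/6J × C3H/HeJ background, 1 library per mouse. The 32 bigenic rNLS8 mice carried NEFH-tTA, in which the neurofilament heavy chain promoter drives the tetracycline transactivator in neurons, together with tetO-hTDP-43ΔNLS, a human TDP-43 without its nuclear localisation signal. The 17 monogenic controls (ctrl PBS, 10 females and 7 males) did not express the transgene and also received PBS; which allele they carried is not given in the sources used here. The bigenic mice had received PBS (TDP-PBS, 4 females and 6 males), ovalbumin conjugates of TDP-43 peptides 10 and 12 (TDP10 + 12, 6 females and 4 males) or of the phosphorylated peptide 15 (TDP15, 5 females and 7 males), at a total dose of 40 µg peptide with Alhydrogel and CpG oligonucleotide as adjuvants. Both PBS groups were given PBS in place of the conjugates, and whether it contained the adjuvants is not stated in the sources used here. In all groups 5 injections from 8 weeks of age preceded induction and 1 followed it, doxycycline was removed at 25.5 weeks to induce the transgene, and tissue was taken 3 weeks later, at 28.5 weeks. Expression of the transgene is set by a neuronal promoter, and the library of each mouse is bulk tissue, so that fewer cells of a type and less RNA per cell cannot be told apart.

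TIMPs are small secreted proteins that block the catalytic zinc of metalloproteinases. MMPs are zinc endopeptidases made as inactive proenzymes that cut matrix and cell-surface proteins, and they fall into secreted enzymes such as Mmp2 (gelatinase A) and Mmp12 (macrophage elastase) and membrane-type enzymes held at the cell surface. Timp2 has a second role, since at the cell surface it forms a complex with Mmp14 that brings pro-Mmp2 to its activator. In the brain these enzymes act on perineuronal nets, the vascular basement membrane and synaptic adhesion proteins.

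Sequence upstream of 3 members is shown, for Timp2, which defined the set, for Mmp24, whose difference from controls had the smallest adjusted p-value, and for Mmp12, whose fitted difference was largest. The windows are from RefSeq on GRCm38.p6, 5′ to 3′ on the gene's strand, and end before the first annotated transcript start of the window. Capitals mark matches on either strand to 3 kinds of element. The first is the GC box, with the letters GGGCGG. The second is the CCAAT box, named by its letters. The third is the AP-1 site, with the letters TGANTCA, where N is any base.
Timp2, chr11:118355507-118355661, minus strand: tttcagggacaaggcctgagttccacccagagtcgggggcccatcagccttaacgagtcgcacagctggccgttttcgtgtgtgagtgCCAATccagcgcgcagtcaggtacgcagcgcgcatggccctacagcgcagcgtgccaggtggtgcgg
Mmp24, chr2:155775092-155775341, plus strand: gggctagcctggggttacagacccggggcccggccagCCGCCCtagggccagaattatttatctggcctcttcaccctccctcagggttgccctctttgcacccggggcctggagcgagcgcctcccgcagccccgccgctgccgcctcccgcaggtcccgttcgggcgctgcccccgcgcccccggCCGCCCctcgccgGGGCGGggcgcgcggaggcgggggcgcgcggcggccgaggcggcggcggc
Mmp12, chr9:7347124-7347373, plus strand: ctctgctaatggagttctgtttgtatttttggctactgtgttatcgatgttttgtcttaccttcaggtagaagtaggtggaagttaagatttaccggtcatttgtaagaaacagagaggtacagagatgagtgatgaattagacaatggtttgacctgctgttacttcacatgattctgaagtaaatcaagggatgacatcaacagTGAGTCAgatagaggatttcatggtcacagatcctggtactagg
The Mmp12 window shown precedes the second of 2 annotated starts and lies inside the annotated span of the gene, and the window before the first start, not shown, held no match to these 3 kinds of element.
Windows of 250 bases before the RefSeq start were found for 7 of the 10 members. A CCAAT box stood in those of Timp2 and Mmp14 and in 33.8% of the 32851 windows of all genes. A GC box stood in those of Timp2, Timp3, Mmp14, Mmp15 and Mmp24 and in 32.7% of all. The GC box of Timp2 lay in the last 95 bases before the RefSeq start, which are not shown because an annotated transcript begins before them. The Mmp24 window held 3 GC boxes and was 79.2% G and C, against a median of 52.4% over all windows, and that of Timp2 was 68.0%. The AP-1 letters, shared by many metalloproteinase promoters, were found among the members in the Mmp12 window shown and in 6.75% of all windows. The ETS-type letters AGGAAG were found in the windows of Timp3, Timp4 and Mmp14, in the other of the 2 Mmp12 windows and in 29.5% of all, and in the Mmp14 window a CCAAT box and a GC box overlap by 1 base. No member's window held a TATA box (TATAAA, 12.4% of all) or a full cAMP response element (TGACGTCA, 1.55% of all). TDP-43 is known to bind UG repeats in RNA, and a run of at least 6 TG repeats was found in the longest coding transcript of Timp4 (23 repeats) and Mmp12 (14 repeats) and in that of 6.41% of all 21877 protein-coding genes. Such matches describe the letters of these windows and transcripts.

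Library depth was even, between 17775738 and 21033608 counts per mouse, so that 3 counts in a library corresponded to 0.139 to 0.165 CPM (counts scaled to library size). The mouse Tardbp gene, which TDP-43 protein is known to regulate negatively, was lower in every bigenic group, with log2 fold changes against ctrl PBS between -0.30 and -0.24 and adjusted p-values of at most 7.98e-05 (edgeR quasi-likelihood test). Reads of the human transgene were not analysed here. Genes marking neurons were present in all mice, as a neocortical sample should show. The summed level of 6 of these markers was 5497 to 6697 CPM in ctrl PBS and 3701 to 4610 CPM over the bigenic groups. Snap25 was the largest part of that sum, with means of 2679 CPM in ctrl PBS and 1671 CPM in TDP-PBS, while Rbfox3 averaged 455.9 and 438 CPM. The sum of excitatory neuron markers averaged 2338 CPM in ctrl PBS and 2175 to 2245 CPM by bigenic group. For interneuron markers these values were 979.9 and 774 to 843 CPM. The sum of 8 microglial markers was 243.5 to 286 CPM in ctrl PBS and 252 to 534 CPM over the bigenic groups. In each bigenic group 6 of the 8 microglial markers were called higher and 5 of the 6 neuronal markers lower than in ctrl PBS. The opposite direction was called for 1 microglial marker in each vaccinated group and for no neuronal marker. Depending on the bigenic group, 20.8% to 23.6% of all tested genes were called higher and 20.0% to 23.2% lower. The part of these marker shifts in the values of the TIMP and MMP genes was not tested. Choroid plexus markers, a sign of tissue from the ventricle wall, summed to 12.7 to 1699 CPM over the mice and were higher in 0 of 5 cases in TDP-PBS, 4 of 5 in TDP10 + 12 and 1 of 5 in TDP15; within groups their sum had Spearman correlations from -0.38 (Mmp17) to 0.28 (Timp3) with the members. One TDP10 + 12 male stood apart with 1132 CPM of the astrocyte gene Gfap, against 180.9 to 383 CPM in the other 9 mice of its group.

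The inhibitor that defined the set, Timp2, was the most abundant TIMP per kb of exon. It ran from 309.6 to 497 CPM in ctrl PBS, with a median of 374, and from 251.5 to 409 CPM in TDP-PBS, with a median of 296. In TDP10 + 12 the range was 323 to 405.5 CPM with a median of 380.4, and in TDP15 it was 264.5 to 333 CPM with a median of 297. The means were thus ordered ctrl PBS (385 ± 46.05 CPM, SD, n = 17), TDP10 + 12 (370.1 ± 32.6, n = 10), TDP-PBS (299.5 ± 49.4, n = 10) and TDP15 (298 ± 23.1, n = 12). The first pair in this order overlapped almost wholly, as did the last pair.

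Every group overlapped its neighbours, and the break lay between the upper and the lower pair. In TDP-PBS 8 of 10 mice were below every ctrl PBS mouse, and the other 2 were not; in TDP10 + 12 no mouse was. Of the TDP10 + 12 mice, 7 of 10 exceeded all 12 TDP15 mice, and all 10 were above the TDP-PBS median. The log2 fold change against ctrl PBS was -0.36 (SE 0.06) in TDP-PBS and -0.06 (SE 0.06) in TDP10 + 12. Between the bigenic groups it was 0.31 (SE 0.07) for TDP10 + 12 against TDP-PBS and 0.31 (SE 0.07) for TDP10 + 12 against TDP15.

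The rule that chose the set does not name the TDP15 mice. There Timp2 was lower than in ctrl PBS, with a log2 fold change of -0.37 (95% interval -0.49 to -0.25, adjusted p = 1.5e-06, edgeR), a fall of 22.5%. All 12 TDP15 mice lay under the ctrl PBS median and 7 of 12 lay below every ctrl PBS mouse. That test shares its 17 ctrl PBS mice with the comparison that chose the gene. Of all tested genes, 23.2% were lower in TDP15. Between TDP15 and TDP-PBS the fitted log2 difference of Timp2 was -0.01, and the TDP15 range lay inside that of TDP-PBS.

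**Figure D1:**
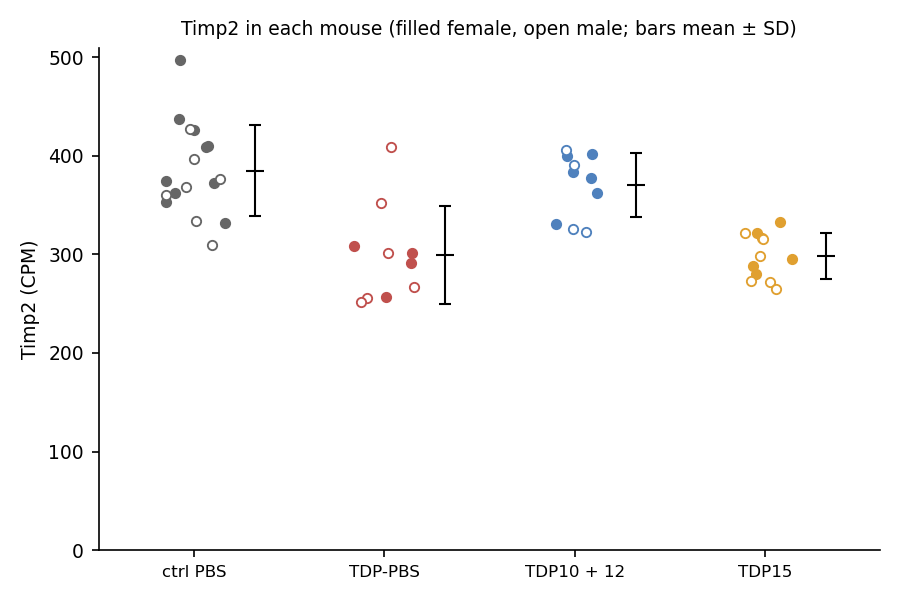
Timp2 in CPM (y axis, from 0) for each of the 49 mice in the 4 groups (x axis); filled points are females, open points males, and the bars beside them give the mean and SD. The TDP10 + 12 mice, at 323 to 405.5 CPM, sit at the height of the ctrl PBS mice, and the TDP-PBS and TDP15 means lie near 299.5 and 298 CPM.

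Split by sex, Timp2 averaged 397 CPM in ctrl PBS females and 367 CPM in ctrl PBS males, and 289.5 and 306 CPM in TDP-PBS females and males. The difference between TDP-PBS and ctrl PBS was -0.44 (log2) in females and -0.26 in males. Both values enter the comparison that chose the gene, so that their difference carries no test. Of the 8 other members in that fit of the PBS-treated mice, none had an effect that differed between the sexes at an adjusted or an unadjusted p under 0.05 (edgeR), and Mmp12 did not pass its low-count filter.

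Within groups, Timp2 moved against the markers of myelinating oligodendrocytes. After the group means were subtracted, its Spearman correlation with the summed level of 8 oligodendrocyte markers was -0.55 over the 49 mice, further from 0 than with the sums of the other 12 marker lists, which lay between -0.20 and 0.36. These are shares of the same libraries, so that the values are not independent. The median of the oligodendrocyte sum was 4733 CPM in ctrl PBS, 4498 in TDP-PBS, 4120 in TDP10 + 12 and 4936 in TDP15, lowest in the vaccinated group with the high Timp2 level. The ranges overlapped widely (3511 to 6434 CPM in ctrl PBS, 3431 to 6148 in TDP10 + 12), and no oligodendrocyte marker was called between TDP10 + 12 and ctrl PBS. The next furthest were fibroblast and meningeal markers (0.36) and olfactory bulb markers (0.35). The fibroblast and meningeal sum had medians of 135 CPM in ctrl PBS, 157 in TDP-PBS, 186 in TDP10 + 12 and 146 in TDP15, highest in TDP10 + 12. The olfactory bulb sum had medians of 10.2, 11.1, 13.3 and 13.2 CPM in the same order. The part of these 3 marker lists in the Timp2 values was not tested.

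**Figure D2:**
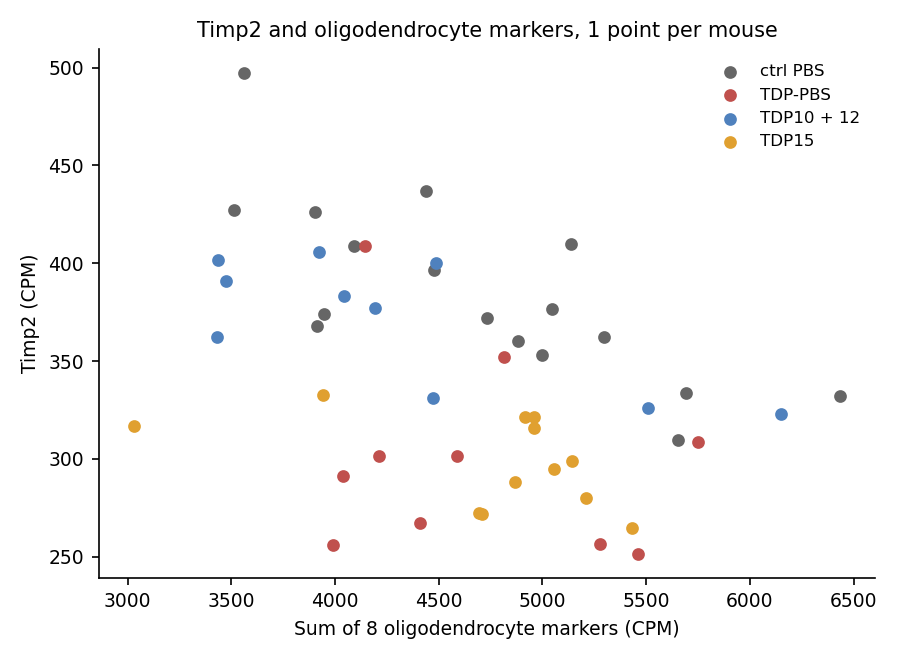
Timp2 (y axis, CPM) against the sum of 8 oligodendrocyte markers (x axis, CPM), 1 point per mouse and a colour per group; neither axis starts at 0. Mice with a higher marker sum tend to have less Timp2 within groups (group-centred Spearman -0.55).

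The genes whose levels followed Timp2 most closely over the 49 mice, of 18219 compared, were Crtac1 (Spearman 0.85), Atp2b4 (0.83), Shisal1 (0.83), Calb1 (0.83), Hap1 (0.82), Camk2d (0.82), Sertm1 (0.82) and Gap43 (0.82). Calb1 encodes the calcium buffer calbindin, Atp2b4 a plasma membrane calcium pump, Camk2d a calcium/calmodulin-dependent kinase and Gap43 a growth cone protein. The likeness is over mice of all 4 groups, so that it includes the group pattern that chose Timp2, and the means of these genes are a description. Sertm1 averaged 15.7, 12.3, 17.1 and 12.6 CPM in ctrl PBS, TDP-PBS, TDP10 + 12 and TDP15, whereas Gap43 averaged 160.2, 123.5, 133 and 116 CPM. The lowest correlations were those of C130074G19Rik (-0.82), Map6d1 (-0.81), Kif5a, a neuronal kinesin (-0.77), and Flywch1 (-0.76).

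With the group means subtracted, the closest genes were Npy2r, a neuropeptide Y receptor (0.83), Nnat (0.79), Hpcal1 (0.77), Hap1 (0.77) and Arhgap36 (0.77). Hap1, known for its high level in the hypothalamus and other ventral brain regions, varied widely inside groups, for example at 151 ± 42.0 CPM (SD) in the 17 ctrl PBS mice. Nnat averaged 148 ± 46.3 CPM in ctrl PBS, 156 ± 63.05 in TDP-PBS, 214 ± 41.3 in TDP10 + 12 and 139.8 ± 36.5 in TDP15. Its mean was thus highest in TDP10 + 12, and its part in the Timp2 values was not tested. None of the other 9 members was near this list, with correlations to Timp2 from -0.25 to 0.19 after the group means were subtracted.

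Mmp12 passed the low-count filter through the bigenic mice, where it is high, and is described below without a test. Of the 8 members other than Timp2 and Mmp12, 5 passed the test as higher in TDP-PBS against controls, 4 in TDP10 + 12 and 4 in TDP15 (adjusted p under 0.05), and none was lower. Over all tested genes 21.9% were higher and 21.6% lower in TDP-PBS, 20.8% higher and 20.0% lower in TDP10 + 12, and 23.6% higher in TDP15. The median log2 fold change of the 8 was 0.23 in each of these comparisons, against medians within 0.01 of 0 over all genes. Mmp2, Mmp14, Mmp16 and Mmp24 were higher in each bigenic group, and Timp3 in TDP-PBS. The 3 comparisons use the same ctrl PBS mice and are given side by side.

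**Figure D3:**
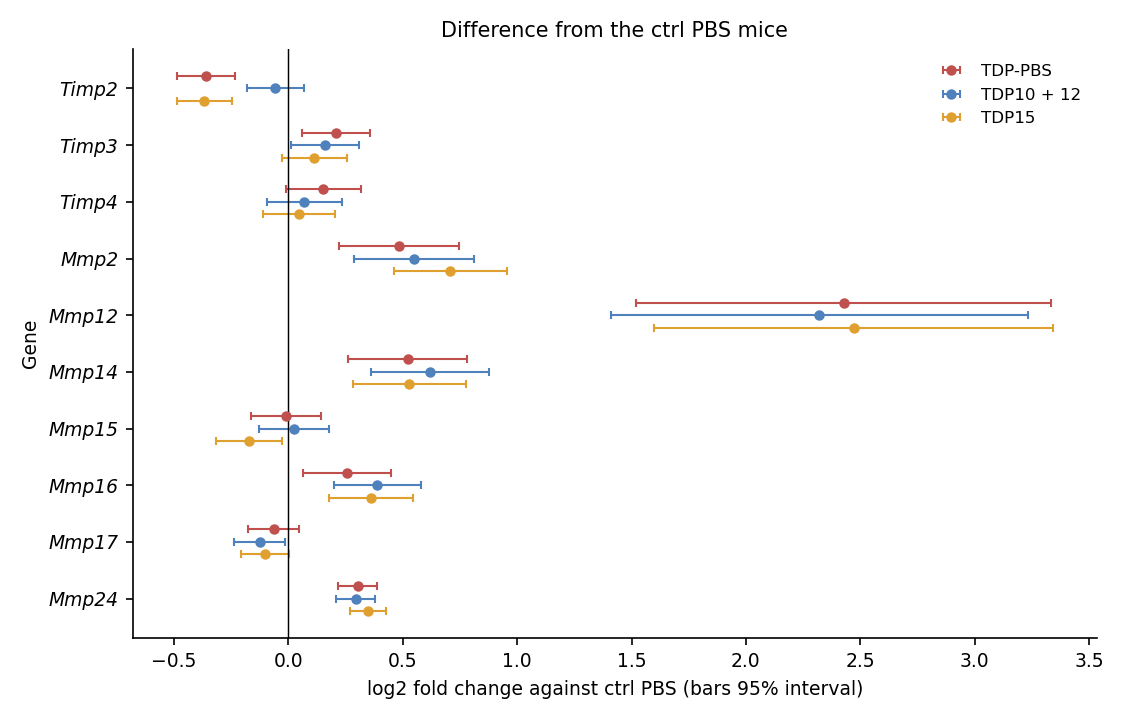
log2 fold change (x axis) of the 10 genes (y axis) in TDP-PBS, TDP10 + 12 and TDP15 against ctrl PBS. Points are the fitted values and bars their 95% intervals. The bars of Mmp12, and those of Timp2 in TDP-PBS and TDP10 + 12, are a description and no test. The Timp2 points lie at -0.36, -0.06 and -0.37 in this order of groups, those of Mmp24 at 0.30, 0.29 and 0.35, and those of Mmp12 furthest right, at 2.43, 2.32 and 2.47.

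Timp3, a TIMP that binds to the matrix and also inhibits ADAM sheddases, averaged 82.8 ± 8.05 CPM in ctrl PBS, 95.65 ± 20.6 in TDP-PBS, 92.4 ± 13.7 in TDP10 + 12 and 89.5 ± 9.28 in TDP15. It was higher in TDP-PBS by 0.21 (log2, SE 0.08, adjusted p = 0.0219, edgeR), with 4 of 10 mice above every ctrl PBS mouse and 1 below every one. That call was not made by limma-voom with sample quality weights, where the adjusted p was 0.0732. In TDP10 + 12 and TDP15 the log2 values were 0.16 and 0.11 (adjusted p = 0.09 and 0.2). Within groups Timp3 followed the summed markers of fibroblasts and meninges (group-centred Spearman 0.49, 49 mice) and of monocytes and macrophages (0.46). Of the 8 fibroblast and meningeal markers 3 were higher in TDP-PBS, 4 in TDP10 + 12 and 3 in TDP15. Of the 4 monocyte and macrophage markers tested, 2, 2 and 1 were higher in the same order. The shares of all tested genes were 21.9%, 20.8% and 23.6%. The part of both lists in the Timp3 values was not tested. The gene shares 1733 bp of exon with Syn3 on the other strand, at 43.5 to 50.1 CPM by group, and the strand setting of the counting is not given in the sources used here.

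Timp4, the least abundant of the 3 inhibitors per kb of exon, stayed between 11.1 and 21.8 CPM in all mice, with group means of 14.5, 16.1, 15.2 and 14.9 CPM in ctrl PBS, TDP-PBS, TDP10 + 12 and TDP15. No comparison with ctrl PBS was called (log2 0.05 to 0.15, adjusted p = 0.138 to 0.666). The interval in TDP-PBS, -0.01 to 0.32, still allows a rise of the size seen for Timp3. Its spread was widest in TDP-PBS, with a coefficient of variation of 24.7% against 5.84% in TDP10 + 12.

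Per kb of annotated exon, Timp2 stood at 98.8 CPM per kb in ctrl PBS, ahead of Mmp17 at 32.04, Mmp24 at 11.1 and Timp3 at 10.2. Mmp15 reached 4.2 CPM per kb, Timp4 2.46, Mmp14 1.95, Mmp16 0.866, Mmp2 0.634 and Mmp12 0.0209. The neighbours Mmp24 and Timp3 had SDs of 0.857 and 0.988 CPM per kb over the ctrl PBS mice. The order was thus led by the inhibitor Timp2 and the membrane-type enzyme Mmp17. Mmp24 and Timp3 came next and close together, and in CPM Timp3 (82.8) was above Mmp24 (52.1) in ctrl PBS. The order of these 2 depends on the length used. Annotated exons of Timp3 span 8144 bp and its longest coding transcript 4722 bp, against 4683 and 4306 bp for Mmp24. The secreted enzymes Mmp2 and Mmp12 were at the bottom of the order.

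Among the secreted enzymes, Mmp2 counts were low, with 22 to 62 reads per ctrl PBS library and 39 to 106 per bigenic library. Mmp2 ran from 1.13 to 3.14 CPM in ctrl PBS with a median of 2.13, and the medians were 3.07 in TDP-PBS, 2.97 in TDP10 + 12 and 3.31 in TDP15. The groups overlapped, since 4 of 10, 4 of 10 and 9 of 12 bigenic mice exceeded all 17 ctrl PBS mice. The log2 fold changes were 0.48 (SE 0.13, adjusted p = 0.0025), 0.55 (SE 0.13, adjusted p = 0.000669) and 0.71 (SE 0.13, adjusted p = 5.38e-06). In TDP15 the rise was 1.63-fold.

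Mmp12, the macrophage elastase, had the largest fitted fold change of the set on the smallest counts. It passed the filter through the mice in which it is high, since 10 or more counts were found in 1 of 17 ctrl PBS mice, 8 of 10 TDP-PBS, 7 of 10 TDP10 + 12 and 9 of 12 TDP15 mice, and its values are a description. Of the 17 ctrl PBS mice 12 held 3 counts or fewer and 4 held none, and the highest, a female, held 17 counts (0.935 CPM). The medians were 0.0524 CPM in ctrl PBS, 0.806 in TDP-PBS, 0.643 in TDP10 + 12 and 0.59 in TDP15, and the ranges reached 1.79, 1.76 and 2.19 CPM in the bigenic groups. Against ctrl PBS the fitted log2 fold changes were 2.43 (SE 0.46), 2.32 (SE 0.47) and 2.47 (SE 0.44). One TDP-PBS mouse had no count and 1 TDP10 + 12 mouse had 3, while each of the 12 TDP15 mice had at least 8. In TDP15 the overlap with ctrl PBS came from the 1 high control mouse, since the other 16 lay below every TDP15 mouse. In TDP10 + 12 12 of 17 ctrl PBS mice lay below every vaccinated mouse, and in TDP-PBS none did. The fold size is uncertain at these counts.

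Mmp14, the membrane-type enzyme that partners Timp2 in activating pro-Mmp2, ran from 5.23 to 16.6 CPM in ctrl PBS with a median of 12.2. The medians were 16.1 CPM in TDP-PBS, 17.3 in TDP10 + 12 and 16.0 in TDP15. It was higher by 0.52 (log2, SE 0.13, adjusted p = 0.00106), 0.62 (SE 0.13, adjusted p = 0.000132) and 0.53 (SE 0.13, adjusted p = 0.000446). In TDP10 + 12 8 of 10 mice exceeded all ctrl PBS mice and the lowest was at 15.35 CPM, whereas the TDP15 mice spread from 9.09 to 28.6 CPM. Within groups Mmp14 varied with the microglial marker sum (group-centred Spearman 0.56, 49 mice), as Mmp2 did less closely (0.43). The part of the microglial markers in these values was not tested. Mmp14 was thus above control in TDP10 + 12 (1.54-fold), where Timp2 was near control, as well as in TDP-PBS (1.44-fold) and TDP15 (1.44-fold), where Timp2 was low.

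Mmp16, another membrane-type enzyme, averaged 7.51 ± 1.55 CPM in ctrl PBS, 8.97 ± 1.51 in TDP-PBS, 9.83 ± 1.13 in TDP10 + 12 and 9.65 ± 1.47 in TDP15. It was higher by 0.26 (log2, SE 0.10, adjusted p = 0.03), 0.39 (SE 0.10, adjusted p = 0.00101) and 0.36 (SE 0.09, adjusted p = 0.00107). All 12 TDP15 mice were above the ctrl PBS median, and 3 of them above every ctrl PBS mouse.

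Mmp24, a membrane-type enzyme expressed mainly by neurons, gave the tightest difference. It ran from 45.6 to 58.5 CPM in ctrl PBS with a median of 51.3, from 56.1 to 72.7 in TDP-PBS with a median of 64.6, from 56.7 to 70.2 in TDP10 + 12 with a median of 65.5 and from 61.0 to 71.7 in TDP15 with a median of 66.8. All 12 TDP15 mice lay above every ctrl PBS mouse, as they did for 2.45% of all tested genes. In TDP-PBS 7 of 10 and in TDP10 + 12 8 of 10 mice did, and complete separation, which no member showed there, was seen for 2.31% and 2.23% of all tested genes. The log2 fold changes were 0.30 (SE 0.04, adjusted p = 6.61e-08), 0.29 (SE 0.04, adjusted p = 1.45e-07) and 0.35 (SE 0.04, adjusted p = 3.98e-10). The neuronal marker sum, of which Snap25 was the largest part, was lower in the same mice (above). Mmp24 shares 637 bp of exon with BC029722 on the other strand, whose means were 72.2 CPM in ctrl PBS and 67.4 to 68.6 CPM in the bigenic groups, opposite to Mmp24.

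**Figure D4:**
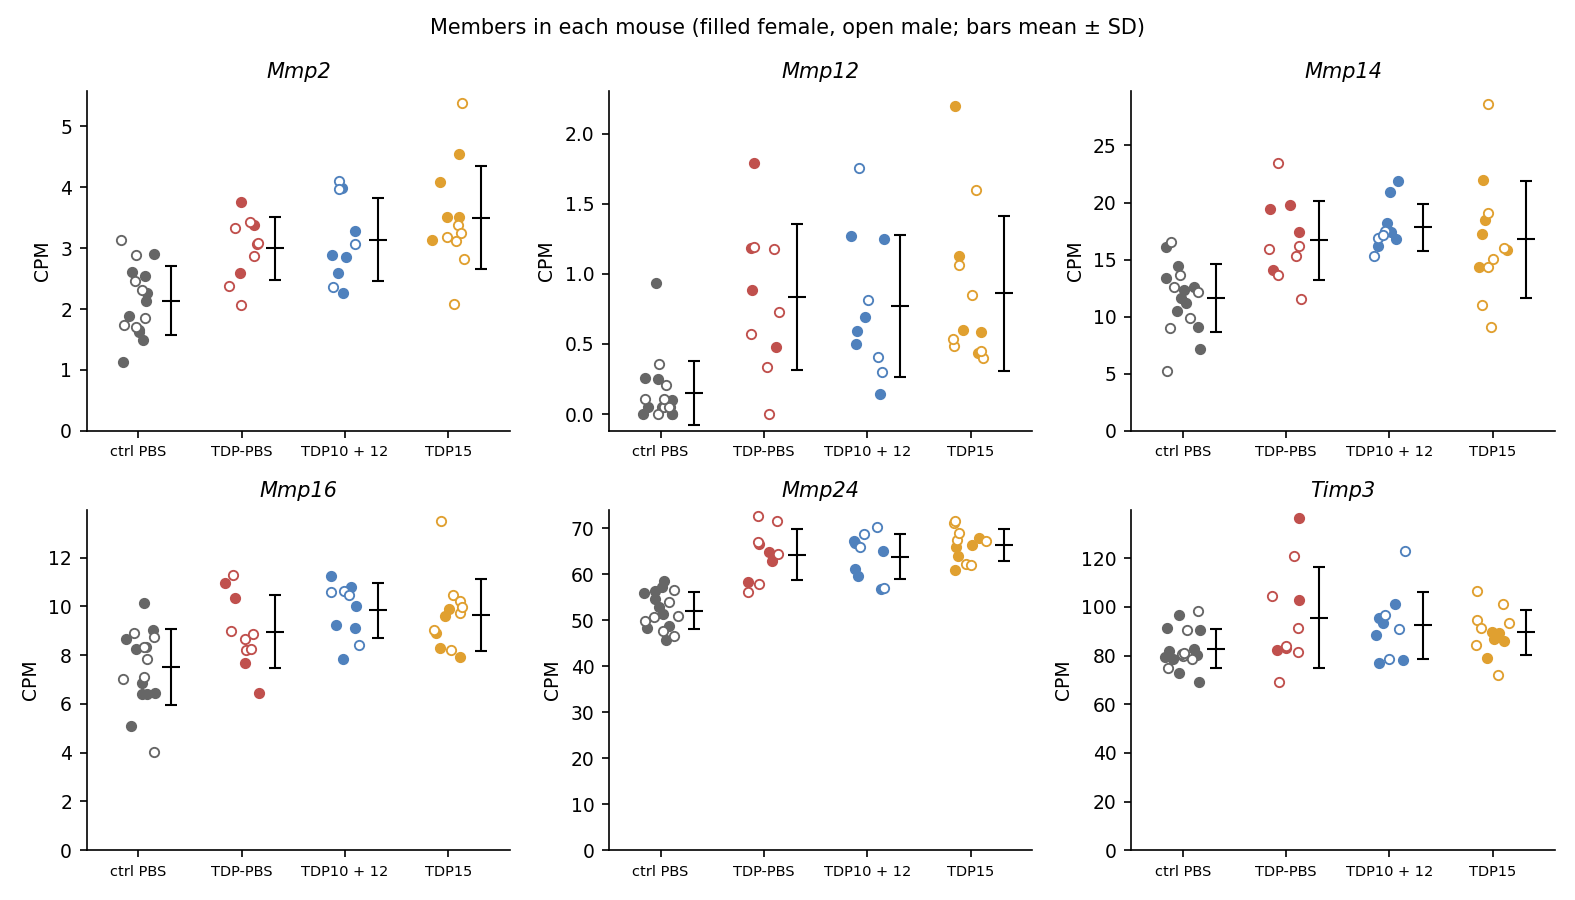
CPM (y axis) of Mmp2, Mmp12, Mmp14, Mmp16, Mmp24 and Timp3 in each mouse of the 4 groups (x axis), with filled points for females, open points for males and bars for the mean and SD. For Mmp24 the lowest TDP15 mouse (61.0 CPM) is above the highest ctrl PBS mouse (58.5 CPM), and the Mmp12 panel shows most ctrl PBS mice near 0 with 1 at 0.935 CPM.

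Mmp15 and Mmp17, 2 further membrane-type enzymes, were not called against ctrl PBS. Mmp15 averaged 22.7, 22.5, 23.05 and 20.1 CPM in ctrl PBS, TDP-PBS, TDP10 + 12 and TDP15, and its lowest value, in TDP15, gave a log2 of -0.17 (interval -0.32 to -0.03, adjusted p = 0.0527). Mmp17, anchored to the membrane by a lipid tail, averaged 212, 203, 194 and 198 CPM, with log2 values from -0.13 to -0.06 (adjusted p = 0.0699 to 0.379). In TDP10 + 12 the male with high Gfap also had the most Mmp17 of its group. There the log2 moved little without it, from -0.13 to -0.15, while the adjusted p of 0.0699 became 0.0223, and limma-voom with that mouse gave 0.0395. The 2 genes ran against each other within groups (group-centred Spearman -0.56, 49 mice), and Mmp17 ran with Mmp24 (0.52). Mmp17 also followed the summed markers of excitatory neurons (0.63), and Mmp15 went against them (-0.40).

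Between the bigenic groups edgeR called no gene at all, and none of the 8 members was called by DESeq2 or limma-voom either. At an unadjusted p under 0.05 edgeR gave 0 of 8 members for TDP10 + 12 against TDP-PBS, 0 for TDP15 against TDP-PBS and 1, Mmp15 (log2 0.20, adjusted p = 0.656), for TDP10 + 12 against TDP15. Over all tested genes the called share in each of these 3 comparisons was 0.0%, and 953, 552 and 1244 genes had an unadjusted p under 0.05. The intervals for TDP10 + 12 against TDP-PBS were -0.10 to 0.09 (log2) for Mmp24 and -0.19 to 0.39 for Mmp14, but -0.98 to 0.77 for Mmp12 on its few counts.

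The list of members leaves out other TIMP and MMP genes, of which 15 were counted as well. Of these 7 passed the filter. Timp1, the inducible TIMP, passed it largely through the bigenic mice, and its values are a description. Its median was 6 counts in ctrl PBS, 14 in TDP-PBS, 11.5 in TDP10 + 12 and 12 in TDP15. From a ctrl PBS mean of 0.347 CPM, the fitted log2 fold changes were 1.30 in TDP-PBS, 2.31 in TDP10 + 12 and 1.34 in TDP15. With sex as a covariate the TDP-PBS value was 1.12. The male with high Gfap carried 11.5 CPM of Timp1 against 0.288 to 1.22 CPM in the other 9 mice of TDP10 + 12. Without that mouse the log2 in TDP10 + 12 was 0.93 (SE 0.37), and DESeq2 gave 0.91 with it in the fit. Mmp23, a membrane-bound enzyme with a toxin-like domain, was lower in each group (log2 -0.70, -0.97 and -0.96, adjusted p of at most 0.00189), averaging 1.53 CPM in ctrl PBS and 0.774 to 0.935 CPM in the bigenic groups. Mmp19, on few counts, also passed the filter largely through the bigenic mice, and its values are a description. Its medians were 8 counts in ctrl PBS, 10 in TDP-PBS, 12 in TDP10 + 12 and 12.5 in TDP15, and the ranges overlapped. Mmp28 was lower in TDP15 (log2 -0.37, adjusted p = 0.0321, edgeR). Mmp9, Mmp11 and Mmp25 were not called.

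Of 17 regulators and partners of MMPs, all tested, 7 were higher and 3 lower in TDP-PBS, 7 and 2 in TDP10 + 12 and 7 and 4 in TDP15. The shares of all genes to set beside the counts of this list and the next 2 are 21.9% higher and 21.6% lower for TDP-PBS, 20.8% higher and 20.0% lower for TDP10 + 12, and 23.6% higher and 23.2% lower for TDP15, and no list was tested against them. Those with the smallest adjusted p-values in TDP-PBS were the integrins Itgav (log2 -0.57, adjusted p = 1.58e-10) and Itgb1 (0.41, adjusted p = 2.44e-08), and Cd44, a hyaluronan receptor that docks MMPs at the cell surface (1.47, adjusted p = 2.6e-07). The next list held 15 ADAM and ADAMTS genes, some of whose products TIMPs also inhibit. Of these 2 were higher and 2 lower in TDP-PBS, 3 and 2 in TDP10 + 12 and 2 and 3 in TDP15. They included Adam23, which lacks a working protease site (-0.39, adjusted p = 2.17e-08), Adam9 (-0.26, adjusted p = 2.25e-05) and Adamts1 (0.33, adjusted p = 0.0251).

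Of 24 matrix proteins, many of them substrates of these enzymes, 6 were higher and 9 lower in TDP-PBS, 6 and 6 in TDP10 + 12 and 8 and 7 in TDP15. Sparc, a collagen-binding glycoprotein, averaged 144 CPM in ctrl PBS and 269 CPM in TDP-PBS (log2 0.90, adjusted p = 8.49e-13). The perineuronal net link protein Hapln4 fell from 207 to 116 CPM (log2 -0.84, adjusted p = 1.43e-11) and the proteoglycan Ncan from 255 to 177 CPM (log2 -0.53, adjusted p = 1.89e-09). All 3 were changed in the same direction in TDP10 + 12 and TDP15. The medians of these lists in TDP-PBS were 0.08 for the regulators, -0.08 for the ADAM and ADAMTS genes and 0.05 for the matrix genes, against -0.0004 for all genes.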

How the data were processed

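Neocortical mRNA of 49 mice was sequenced with paired-end 100 bp reads. The authors deposited raw counts per gene and mouse, aligned to GRCm38.p6. The submitters' processing notes name HISAT, HISAT2, Bowtie, Bowtie2 and RSEM without roles, so the counts may be rounded estimates. The strand setting is not given in the sources used here. The study's text names DESeq2 for its own comparisons.

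Groups were read from the sample labels. Each mouse was 1 library, and total counts lay between 17775738 and 21033608. The smallest chi-square per degree of freedom between 2 mice of a group was 7.77, so no library was a copy of another in its group. Pairs from different groups were not compared. Floors and counting precision cover counting error only. No deposited column was left without a sample.

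Counts were filtered with filterByExpr (at least 10 counts, 15 in total), scaled by TMM and fitted over all 49 mice with glmQLFit and glmQLFTest (edgeR 4.0.16, R 4.3.3), with Benjamini-Hochberg adjustment over 18220 genes and a threshold of 0.05. CPM used TMM-scaled library sizes, and levels per kb used exon lengths of GENCODE M21. The script was tested on simulated data. Correlations used log2 CPM (prior count 2). The 8 alternatives were upper-quartile factors, DESeq2 size factors, no filter, sex as a covariate, only the 2 groups compared, limma-voom 3.58.1 with sample quality weights, DESeq2 1.42.0 and, chosen after seeing the data, the fit without the TDP10 + 12 mouse highest in Timp1. The members and lists were chosen with earlier results of these data known. All 10 members are named. From each list the 3 genes with the smallest adjusted p in TDP-PBS against ctrl PBS are named, and from the likeness to Timp2 the 8 highest and 4 lowest correlations and the 5 highest with group means subtracted. Mmp19, Mmp28, Mmp9, Mmp11, Mmp25 and Tardbp were named after their values were seen.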

Additional observations from a re-analysis of the deposited data

Results flagged for a closer look

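Of 20 group and gene combinations with 10 mice, 2 held a mouse that stood apart from the other 9. Chance alone flags about 1 in 20 such groups. In TDP10 + 12 the highest mouse had 123.2 CPM of Timp3, against 77.1 to 101 CPM in the other 9. In the same group the highest mouse had 242.5 CPM of Mmp17, against 177 to 201 CPM in the other 9. Both values belong to 1 male, which also had the most Timp1 (11.5 CPM) and Gfap (1132 CPM) of its group, and it ranked first of 10 for Timp2 and Mmp24 as well. Its Mmp15 level, 18.8 CPM, was the lowest of the group.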

How the results depend on the processing

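Of the 8 members other than Timp2 and Mmp12, the number called against ctrl PBS under the 8 alternatives was 4 to 5 for TDP-PBS. It was 4 to 5 for TDP10 + 12, 4 to 5 for TDP15 and 0 between the bigenic groups under each of them. The rises of Mmp2, Mmp14, Mmp16 and Mmp24 passed the threshold under all 8. Mmp12 did not pass the filter in the fits of only ctrl PBS and 1 bigenic group, but passed it in those of 2 bigenic groups. Timp2 ranged from -0.43 to -0.35 (log2) in TDP-PBS and from -0.06 to -0.05 in TDP10 + 12 against ctrl PBS, and its call in TDP15 held under all 8 (-0.37 to -0.36). Calls that depended on the setting were Timp3 in TDP-PBS, lost with limma-voom (adjusted p = 0.0732), Timp3 in TDP10 + 12, gained in the fit of 2 groups (0.0401), Mmp15 in TDP15, gained with limma-voom (0.0453), and Mmp17 in TDP10 + 12, gained with limma-voom (0.0395) and without the mouse highest in Timp1 (0.0223). The sign turned only in values that were not called. Mmp15 in TDP-PBS became 0.0022 with sex as a covariate and 0.0005 without the mouse highest in Timp1. With limma-voom, TDP15 against TDP-PBS became 0.0585 for Timp2, -0.0277 for Mmp12 and -0.0281 for Mmp14, and TDP10 + 12 against TDP-PBS became 0.0115 for Timp4. Timp3 in TDP10 + 12 against TDP15 became -0.0084 without the mouse highest in Timp1. The cause was not tested. Of the 8 genes most like Timp2, 4 were also among the 8 highest by Pearson's r and 1 among the 8 highest over the 32 bigenic mice. Over all genes 1 was called between TDP10 + 12 and TDP-PBS with no filter and 2 with limma-voom, and 1 between TDP10 + 12 and TDP15 with no filter and 2 in the fit of 2 groups. No paired analysis was possible because every mouse was a separate animal with its own number. Depth limits Mmp12 most, at 0 to 44 counts per library.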
